A study of Mus musculus with 9 samples.

Results

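The 10 transcripts described here are known from neutrophils and the granules these cells carry, though not all of them from these cells alone: S100a8, S100a9, Ngp, Camp, Chil3, Ltf, Lcn2, Retnlg, Elane and Mmp8. They were chosen by name, from values of these same libraries, as neutrophil genes whose level differed from one cDC2 library to the next, so their levels are given as a description and without a test. All 10 were among the 14862 genes of the deposited table, and all 10 passed the filter on low values (above 1 RPKM in at least 2 libraries, where RPKM is a read count scaled to gene length and library size). The 9 libraries came from dendritic cells of spleens of C57Bl/6 mice aged 8 to 12 weeks, with no genetic change or agent named in the labels. There were 3 libraries each of cDC1, conventional dendritic cells known for cross-presentation to CD8 T cells, of cDC2, the conventional subset better known for priming CD4 T cells, and of a subset labelled mcDC, an abbreviation the labels do not expand. How the cells were isolated and the number of mice per library are not stated in the sources used here, and nothing in the labels ties a library to its own mouse or pool, so that each p-value reflects spread among these libraries that could be technical.

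Neutrophils load their granules in waves as they mature in the bone marrow. Primary granules are filled early with enzymes such as elastase and myeloperoxidase, secondary granules follow with lactoferrin, lipocalin and cathelicidin, and gelatinase granules come last, while S100A8 and S100A9 accumulate in the cytosol. Mature neutrophils transcribe little of the early granule genes.

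The members do not lie together in the genome: in the RefSeq gene table of GRCm38.p6, used for names and neighbourhood alone, S100a8, S100a9 and Chil3 are on chromosome 3, Ngp, Camp, Ltf and Mmp8 on chromosome 9, Lcn2 on chromosome 2, Elane on chromosome 10 and Retnlg on chromosome 16. Promoter windows of the genes that moved together are shown for the pair of cytosolic S100 genes and for 3 genes of secondary granules. The sequences are RefSeq's, build GRCm38.p6, read 5′ to 3′ on the strand of the gene, and end before the most upstream start of the gene in GENCODE M21, so that no transcribed base is included. Capitals mark matches to a C/EBP motif (TTGCNNAA, or TTNNGCAA on the other strand) or to a PU.1 motif (GAGGAA, or TTCCTC on the other strand), and the motifs were picked because both factors are known to act in granulocyte development.
S100a8, chr3:90668821-90668977, plus strand: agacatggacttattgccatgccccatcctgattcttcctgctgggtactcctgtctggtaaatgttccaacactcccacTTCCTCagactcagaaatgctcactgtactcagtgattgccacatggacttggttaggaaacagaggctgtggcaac
S100a9, chr3:90695722-90695971, minus strand: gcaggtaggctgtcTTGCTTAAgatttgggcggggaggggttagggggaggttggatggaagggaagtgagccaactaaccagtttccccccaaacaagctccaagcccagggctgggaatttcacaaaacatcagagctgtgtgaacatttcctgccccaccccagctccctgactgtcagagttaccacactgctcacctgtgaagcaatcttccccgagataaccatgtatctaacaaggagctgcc
Ngp, chr9:110419558-110419746, plus strand: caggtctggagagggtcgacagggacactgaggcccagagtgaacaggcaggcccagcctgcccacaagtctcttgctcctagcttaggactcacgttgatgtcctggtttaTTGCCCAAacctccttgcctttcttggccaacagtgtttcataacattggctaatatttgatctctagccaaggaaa
Ltf, chr9:111019042-111019270, plus strand: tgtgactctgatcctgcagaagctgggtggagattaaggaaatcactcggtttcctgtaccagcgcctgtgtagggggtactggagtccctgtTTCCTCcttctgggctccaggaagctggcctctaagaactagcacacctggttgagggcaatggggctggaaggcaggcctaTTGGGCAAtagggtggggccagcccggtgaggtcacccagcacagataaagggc
Lcn2, chr2:32387798-32387989, minus strand: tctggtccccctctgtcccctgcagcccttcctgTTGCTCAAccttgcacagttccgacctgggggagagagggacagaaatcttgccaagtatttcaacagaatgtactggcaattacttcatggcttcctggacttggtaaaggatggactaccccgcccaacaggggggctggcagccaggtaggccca

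Over the 250 bases before the RefSeq start, the C/EBP motif was found in 6 of the 10 members (S100a9, Ngp, Ltf, Lcn2, Retnlg and Mmp8), against 9.6% of all 32851 RefSeq windows of that length and 7.6% of the 11700 windows that belong to genes of the deposited table. The match lay 71 bases before the start in Ltf, 212 in Lcn2 and 232 in S100a9, and Ngp had matches at 134 and 7 bases. The PU.1 motif was found in 5 members (S100a8, Ltf, Lcn2, Elane and Mmp8), against 23.3% of all windows and 22.9% of those of genes of the table. Some counted matches lie past the most upstream GENCODE M21 start, beyond the printed sequence. These are the C/EBP match of Ngp at 7 bases, the PU.1 match of Lcn2 at 17 and a PU.1 match of S100a8 at 33. Camp and Chil3 held neither set of letters in this window. A match is a string of letters, not a measured binding site, and the matches of the 2 motifs shared no base.

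The cytosolic pair had the highest levels. S100a8 (Entrez gene 20201), which encodes 1 chain of the calcium-binding dimer calprotectin, was at 60.2, 345 and 632 RPKM in cDC2 replicates 1, 2 and 3, at 1.62, 6.48 and 14.2 RPKM in cDC1 and at 0.619, 12.4 and 21.3 RPKM in mcDC. Its partner chain S100a9 (20202) was at 45.9, 296 and 482 RPKM in cDC2, at 4.63, 4.76 and 13.4 in cDC1 and at 0.177, 4.45 and 10.5 in mcDC. For both genes the lowest cDC2 library lay above the highest library of either other subset, and replicate 1 was the lowest in every subset. The mean ± SD of S100a8 was 345 ± 286 RPKM in cDC2, 7.43 ± 6.35 in cDC1 and 11.4 ± 10.4 in mcDC (3 libraries each), so that the SD was nearly as large as the mean in each of them. These means stood in a ratio of 46.5 for cDC2 to cDC1 and 30.2 for cDC2 to mcDC.

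Ngp, Camp, Ltf and Lcn2, genes of secondary granules, spanned 19.9-fold (Lcn2) to 49.5-fold (Camp) from cDC2 replicate 1 to replicate 3, against 10.5-fold for S100a8 and 9.81-fold for Mmp8, which is also stored in these granules. Ngp (18054), a neutrophil granule protein related to the cathelicidins, was at 7.11, 124 and 235 RPKM in cDC2, at 0.626, 2.73 and 5.06 in cDC1 and at 0.523, 0.309 and 4.01 in mcDC. Camp (12796), the precursor of the antimicrobial peptide cathelicidin, was at 2.18, 61.4 and 108 RPKM in cDC2 and at 0, 0.606 and 2.93 in cDC1. In the 3 mcDC libraries Camp had 0 reads, which allows 0.264 RPKM at 3 reads over the group, so its mean of 57.1 ± 52.9 RPKM in cDC2 was at least 216-fold higher. The lowest cDC2 library of Camp, on 12 reads, lay below cDC1 replicate 3, on 17 reads, so cDC1 and cDC2 overlapped for Camp.

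Ltf (17002), lactoferrin, which binds iron, was at 2.58, 45.4 and 72.6 RPKM in cDC2, at 0, 0.0331 and 1.77 in cDC1 and at 0.0885, 0 and 1.49 in mcDC. Lcn2 (16819), lipocalin 2, which withholds bacterial iron carriers, was at 4.20, 45.0 and 83.7 RPKM in cDC2, at 0, 0 and 0.967 in cDC1 and at 0.142, 0 and 0.911 in mcDC. For both, replicate 3 was the highest library in all 3 subsets, and every cDC2 library lay above the other 6. The values outside cDC2 rest on few reads, with 48 reads of Ltf and 8 of Lcn2 over the 3 cDC1 libraries together, and 23 and 5 over the mcDC libraries.

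The other members had lower means in cDC2, though Chil3 and Retnlg lay above Camp, Ltf and Lcn2 in cDC2 replicate 1. Chil3 (12655), a chitinase-like lectin of neutrophils and activated macrophages, was at 5.16, 33.6 and 52.9 RPKM in cDC2, at 0, 1.002 and 0.804 in cDC1 and at 0, 0 and 0.126 in mcDC. Retnlg (245195), a resistin-like secreted protein of mature neutrophils, was at 6.97, 24.4 and 27.2 RPKM in cDC2 and at 0, 0.886 and 0 in mcDC. In cDC1 Retnlg was at 2.84, 0.298 and 0.170 RPKM, so that replicate 1 was its highest cDC1 library (19 reads against 2 and 1), whereas 7 other members had their lowest cDC1 value there. Mmp8 (17394), neutrophil collagenase, was at 0.842, 6.29 and 8.26 RPKM in cDC2, at 0.0740, 0.222 and 0.0420 in cDC1 and at 0, 0 and 1.11 in mcDC, and the lowest cDC2 library overlapped mcDC replicate 3.

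Elane (50701), neutrophil elastase and the only primary granule gene among the members, separated the subsets least. It was at 0, 2.45 and 4.54 RPKM in cDC2, at 0, 1.28 and 2.58 in cDC1 and at 0, 0 and 2.53 in mcDC, so that all 3 subsets overlapped. With 0 reads in cDC2 replicate 1, where 3 reads would be 0.354 RPKM, its level was at least 6.92-fold higher in cDC2 replicate 2 and at least 12.8-fold higher in cDC2 replicate 3. The ratio of the group means was 1.81 for cDC2 to cDC1, against 17.7 in Retnlg, the next lowest, and 137 in Lcn2, the highest.

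Counted together, 7 of the 10 members (all but Camp, Elane and Mmp8) had their 3 cDC2 libraries above the other 6, as did 5.88% of all 11971 genes tested. Libraries of cDC2 and cDC1 did not overlap at 8 members, all higher in cDC2, where 24.6% of genes tested were higher without overlap, and cDC2 and mcDC did not overlap at 8, against 7.7%. Between mcDC and cDC1 all 10 members overlapped, so that 0 were higher in mcDC without overlap, against 19.5% of genes. The median difference of the members on the log2(RPKM + 1) scale, which understates the ratio of low genes, was 3.97 for cDC2 minus cDC1 (0.022 over all genes tested), 4.42 for cDC2 minus mcDC (-0.060) and -0.47 for mcDC minus cDC1 (0.094). These counts follow from how the members were chosen, and the comparisons share libraries. In bulk samples a lower share of cells with a transcript and less of it per cell cannot be told apart.

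**Figure D1:**
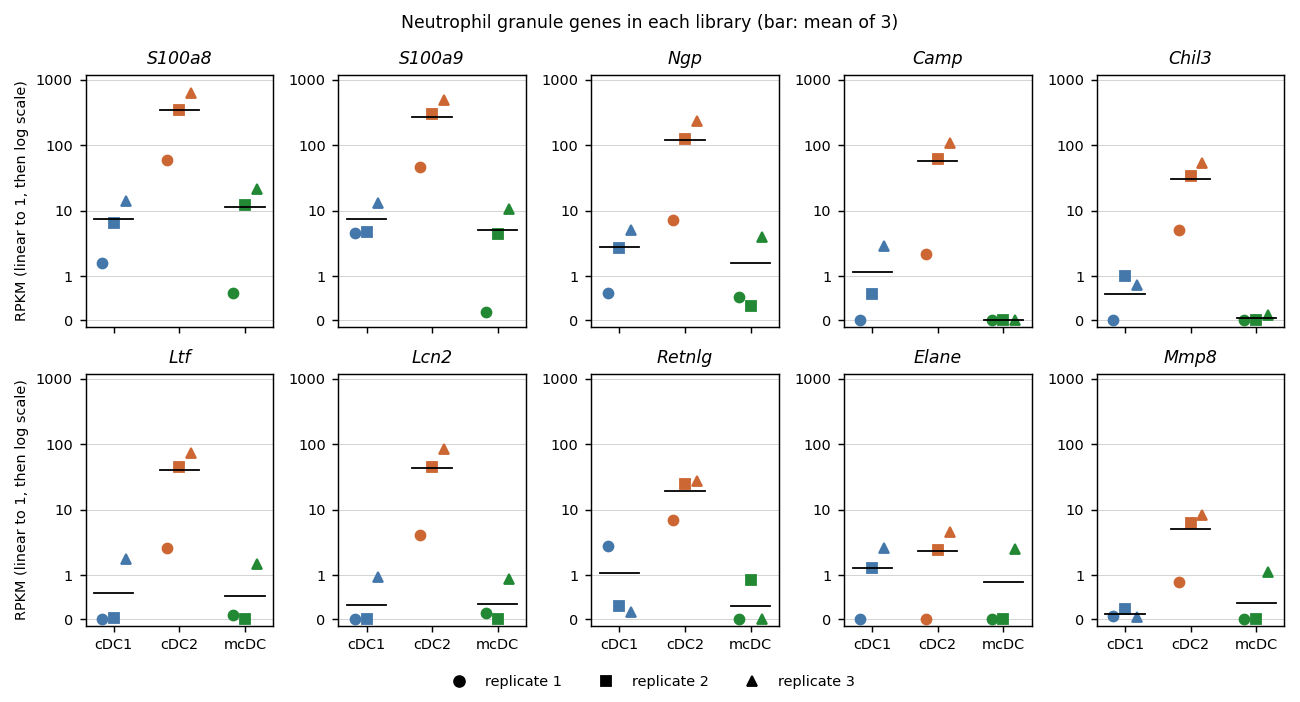
RPKM of the 10 genes in each of the 9 libraries (vertical axis linear up to 1 RPKM and logarithmic above), with 1 point per library, the shape giving the replicate and the bar the mean of 3. In cDC2 replicate 1 is the lowest and replicate 3 the highest library for all 10 genes, and Elane is the gene whose 3 subsets lie closest together.

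Replicate 1 was the lowest cDC2 library and replicate 3 the highest for all 10 members. On the log2(RPKM + 1) scale all 10 were at least 2-fold higher in replicate 3 than in replicate 1, as were 1.35% of the genes tested, with a median difference of 3.37 (range 1.82 to 5.10) against -0.011 over all genes. From replicate 1 to replicate 2 all 10 also passed 2-fold, against 0.743% of genes, with a median of 2.58. From replicate 2 to replicate 3 none passed 2-fold, as against 0.292% of genes tested, and the median was 0.69. As ratios of RPKM, replicate 3 to replicate 2 ran from 1.12 in Retnlg to 1.89 in Ngp, a narrow range. Replicate 2 to replicate 1 ran from 3.50 in Retnlg to 28.2 in Camp, leaving out Elane, which had no reads in replicate 1. Together the members took 89.7 of every M reads in cDC2 replicate 1, 767 in replicate 2 and 1310 in replicate 3, against 6.46 to 31.9 in cDC1 and 1.34 to 30.4 in mcDC.

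The same library order was partly seen in the other subsets. The titles number the libraries so that the 3 subsets of one replicate number follow each other, here called a run. The reads of the members per M reads were lowest in replicate 1 and highest in replicate 3 in each subset, with 6.46, 12.9 and 31.9 in cDC1 and 1.34, 8.82 and 30.4 in mcDC. In cDC1, 7 of 10 members were highest in replicate 3 (29% of genes tested) and 7 lowest in replicate 1 (33.9%). In mcDC 8 of 10 were highest in replicate 3 (38.2%), but 2 of 10 were lowest in replicate 1 (34.5%), where several members were at 0 in replicate 2 as well. In cDC2, where all 10 held both places, the shares of genes were 34.5% and 38.1%. On the log2(RPKM + 1) scale 6 of 10 were at least 2-fold higher in replicate 3 than in replicate 1 in cDC1 (1.91% of genes tested) and 6 of 10 in mcDC (9.11%). Within the runs, the ratio of cDC2 to cDC1 was 37.1, 53.2 and 44.5 for S100a8, 9.92, 62.1 and 36.02 for S100a9, and 11.4, 45.5 and 46.4 for Ngp. The excess in cDC2 was thus present in each run for these 3 genes, and what links the libraries of a run is not stated in the labels.

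The genes did not keep the same proportions in every cDC2 library. Set against S100a8 in the same library, Ngp was at 0.118 in cDC2 replicate 1 (95% exact Clopper-Pearson interval of the reads 0.0898 to 0.154), at 0.361 in replicate 2 (0.337 to 0.387) and at 0.372 in replicate 3 (0.354 to 0.391). Camp was at 0.0362 (0.0184 to 0.0645), 0.178 (0.160 to 0.199) and 0.171 (0.158 to 0.184) of S100a8. Ltf followed with 0.0428 (0.0319 to 0.0567), 0.132 (0.123 to 0.142) and 0.115 (0.109 to 0.121). For Lcn2 the proportions were 0.0699 (0.0469 to 0.101), 0.131 (0.117 to 0.145) and 0.132 (0.123 to 0.143). Replicate 1 thus held less of these 4 genes per S100a8 than the other 2 cDC2 libraries, beyond counting error. Mmp8, another secondary granule gene, did not share this: it was at 0.014 (0.00826 to 0.0224), 0.0183 (0.0156 to 0.0213) and 0.0131 (0.0114 to 0.0149) of S100a8.

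Other members stayed closer to S100a8 or moved the opposite way. S100a9 was at 0.764, 0.858 and 0.763 of S100a8 in the 3 cDC2 libraries, where the interval of replicate 2 (0.805 to 0.916) lay above that of replicate 3 (0.728 to 0.799), and Chil3 at 0.0857, 0.0977 and 0.0838. For Chil3 the interval in replicate 1 (0.0648 to 0.112) held both other values. Retnlg was at 0.116 (0.0802 to 0.164), 0.0708 (0.0601 to 0.083) and 0.0431 (0.0372 to 0.0496), highest in replicate 1. The intervals cover counting error only, since reads without molecular identifiers are not independent molecules.

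In cDC1, at far lower levels, Ngp was at 0.386 (0.122 to 1.25), 0.422 (0.249 to 0.72) and 0.356 (0.241 to 0.527) of S100a8, values whose intervals hold those of cDC2 replicates 2 and 3. Other members did not all do so: in cDC1 replicate 2 Ltf was at 0.00511 of S100a8 (0.000125 to 0.0309, on 1 read) and Lcn2 had 0 reads (up to 0.0647), both below cDC2 replicates 2 and 3, and in cDC1 replicate 1 Retnlg was at 1.75 (0.704 to 4.93), above them. For Ngp the intervals of cDC1 replicates 2 and 3 do not reach that of cDC2 replicate 1. Elane was at 0.198 (0.0941 to 0.395) and 0.181 (0.106 to 0.301) of S100a8 in cDC1 replicates 2 and 3 and at 0.119 (0.0571 to 0.23) in mcDC replicate 3, against 0.00712 (0.00463 to 0.0105) and 0.00719 (0.00536 to 0.00945) in cDC2 replicates 2 and 3. Relative to S100a8, elastase was therefore lower in cDC2 than in those 3 libraries, beyond counting error. In mcDC replicate 3, Ngp was at 0.188 (0.109 to 0.318) of S100a8 and Camp had 0 reads beside 43 of S100a8.

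**Figure D2:**
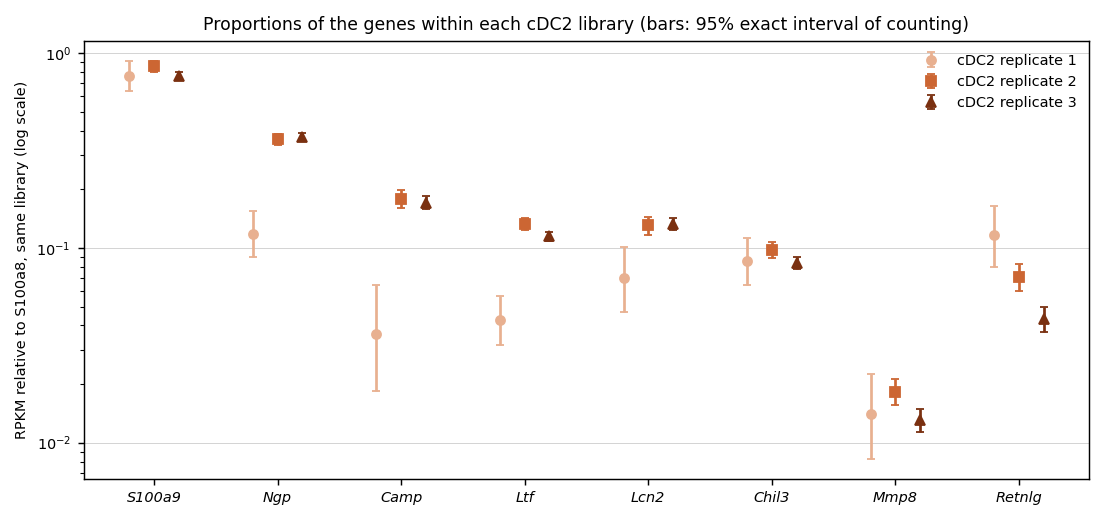
RPKM of 8 members divided by that of S100a8 in the same cDC2 library (logarithmic axis), with 1 point per library and bars for the 95% exact interval of the read counts. Ngp, Camp, Ltf and Lcn2 sit lower in replicate 1, S100a9 and Chil3 lie between 0.763 and 0.858 and between 0.0838 and 0.0977, and Retnlg is highest in replicate 1.

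Tests were run on genes that are no members. Their lists were also drawn up with earlier results of these data known, so the counts called are not independent support. Differences were tested with limma on log2(RPKM + 1) over 11971 genes, and a gene was called at a Benjamini-Hochberg adjusted p of 0.05. Other primary granule genes were low in all subsets. Of 4 tested, 0 were called in any comparison (1, 0 and 1 at an unadjusted p under 0.05 for cDC2 against cDC1, cDC2 against mcDC and mcDC against cDC1, and 0 with voom). Mpo, myeloperoxidase, was at 0, 2.01 and 2.02 RPKM in cDC2, at 0, 1.89 and 4.13 in cDC1 and at 0, 0.212 and 2.98 in mcDC (cDC2 minus cDC1 -0.24 ± 0.72, SE, limma adjusted p = 0.88). Prtn3, proteinase 3, was at 0, 0.805 and 2.73 RPKM in cDC2 and at 0.281, 1.40 and 1.81 in cDC1 (adjusted p = 0.92). Prss57, a serine protease of these granules, was at 1.52, 1.25 and 1.53 RPKM in cDC1, above all 6 other libraries (0.242, 0.290 and 0.925 in cDC2), and was called lower in cDC2 than in cDC1 only without mcDC replicate 3 (-0.74 ± 0.29, limma adjusted p = 0.12, and 0.028 without that library). As with Elane, cDC2 replicate 1 had 0 reads of Mpo, Prtn3 and Ctsg.

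Other genes of later granules and secreted neutrophil proteins were more often higher in cDC2. Of 14 tested, 7 were higher and 2 lower in cDC2 than in cDC1, where 10.7% and 8.85% of all genes were called, with a median log2 fold change of 1.62 (0.022 over all genes). Hp, haptoglobin, which binds free haemoglobin, was at 5.08, 12.8 and 22.4 RPKM in cDC2 and at 0, 0.125 and 0.662 in cDC1 (3.35 ± 0.45, limma adjusted p = 0.00063). Cd177, a neutrophil surface glycoprotein stored in secondary granules, was at 2.04, 7.09 and 12.9 against 0.301, 0.134 and 0.0760 RPKM (2.58 ± 0.46, adjusted p = 0.0033). Both had cDC2 replicate 1 as their lowest cDC2 library, like the members.

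Mmp9, gelatinase B, had the largest difference of the list but the opposite order of libraries. It was at 40.5, 27.1 and 18.5 RPKM in cDC2, at 24.4, 15.3 and 7.40 in mcDC and at 0.114, 0.286 and 0.390 in cDC1 (cDC2 minus cDC1 4.49 ± 0.39, limma adjusted p = 4.9e-05). Pglyrp1, a peptidoglycan-binding antibacterial protein, was nearly level in cDC2 at 85.7, 110 and 111 RPKM and was not called apart from mcDC, at 76.5, 74.7 and 120, against a mean of 13.9 ± 5.46 (SD, 3 libraries) in cDC1 (2.84 ± 0.27, adjusted p = 8.1e-05). Adam8, a metalloprotease, was lower in cDC2 at 105, 80.6 and 75.1 RPKM than in cDC1 at 261, 350 and 331 (-1.84 ± 0.16, adjusted p = 4.8e-05). Anxa1, annexin A1, and Slpi, a protease inhibitor, were not called between cDC2 and cDC1 (adjusted p = 0.29 and 0.82).

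Of 10 genes of mature neutrophils, 8 were higher in cDC2 than in cDC1 and 0 lower, where 10.7% and 8.85% of all genes were called. The 10 are 9 surface receptors and Hdc, the enzyme that makes histamine, which was among the 8. Csf3r, the receptor for the granulocyte growth factor G-CSF, was at 21.6, 33.05 and 29.4 RPKM in cDC2, at 1.80, 0.535 and 0.925 in cDC1 and at 9.94, 6.66 and 3.39 in mcDC (cDC2 minus cDC1 3.82 ± 0.34, limma adjusted p = 6.2e-05). Trem3, an activating receptor of myeloid cells, was at 8.40, 10.7 and 14.8 against 0.173, 0.0865 and 0 RPKM (3.47 ± 0.36, adjusted p = 0.00015). Il1r2, the decoy receptor for interleukin 1, was at 8.90, 9.04 and 10.2 against 0.270, 0.607 and 0.0767 (2.99 ± 0.24, adjusted p = 2.9e-05), and Fpr2, a formyl peptide receptor that also binds cathelicidin, at 3.19, 4.75 and 9.98 against 0.0701, 0.210 and 0.637 (2.32 ± 0.37, adjusted p = 0.0017). Cxcr2, the chemokine receptor by which mature neutrophils leave the marrow, was at 5.04, 7.52 and 7.68 RPKM in cDC2 and at 3.25, 3.88 and 2.37 in cDC1 and did not pass (adjusted p = 0.11), though it was called without mcDC replicate 1 (0.038), without mcDC replicate 3 (0.023) and with voom (0.038). Ly6g, the usual surface marker of mouse neutrophils, was looked for by symbol and gene number and was not found in the deposited table.

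Among 7 transcription factors of granulocyte development, 4 were higher in cDC2 than in cDC1 and 0 lower, against 10.7% and 8.85% of all genes. Cebpb, which drives emergency granulopoiesis and is also active in monocytes, was at 52.0, 43.3 and 56.3 RPKM in cDC2, at 3.89, 2.93 and 5.23 in cDC1 and at 14.2, 9.94 and 20.7 in mcDC (cDC2 minus cDC1 3.38 ± 0.26, limma adjusted p = 2.4e-05). Cebpd, Cebpa and Spi1, the gene of PU.1, were called with log2 fold changes of 1.84 ± 0.23, 1.62 ± 0.17 and 0.64 ± 0.11 (limma adjusted p = 0.00037, 0.00013 and 0.0032). In cDC2 Cebpa lay between 14.6 and 15.8 RPKM and Cebpd between 9.76 and 14.4, a narrow span beside that of the members. Cebpe, the factor needed for secondary granule genes, was at 0.176, 1.89 and 1.95 RPKM in cDC2 and at 0, 0 and 0.333 in cDC1 (0.97 ± 0.37, limma adjusted p = 0.11, and 1.41 with 0.012 without cDC2 replicate 1), lowest in cDC2 replicate 1.

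Over these lists, 19 of 35 other neutrophil genes tested were called higher in cDC2 than in cDC1 and 2 lower, against 10.7% and 8.85% of all genes. With a filter of 5 RPKM in 2 libraries, which tests fewer of the genes, the count higher was 11. Against mcDC, 10 of the 35 were higher in cDC2 and 0 lower, where 1.6% of all genes were higher and 2.06% lower, and leaving out cDC2 replicate 2 or cDC2 replicate 3 reduced that count to 3 in either case. It was 6 without cDC1 replicate 2, cDC1 replicate 3 or mcDC replicate 2. Cebpb (1.74 ± 0.26, limma adjusted p = 0.0074) and Trem1, an amplifier of inflammatory signals (1.54 ± 0.20, adjusted p = 0.0046), kept their calls under the settings in which they were tested, which for Trem1 leave out the filter of 5 RPKM. Csf3r (1.996 ± 0.34, adjusted p = 0.013) lost its call against mcDC without cDC2 replicate 2 (0.079) or cDC2 replicate 3 (0.065), and Hp (3.20 ± 0.45, adjusted p = 0.0057) with voom (0.14).

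mcDC carried 11 of the 35 at a higher level than cDC1 and 2 at a lower one, where 9.53% and 5.88% of all genes were called. The count higher was 7 without cDC1 replicate 1 or cDC1 replicate 2. Mmp9 (3.59 ± 0.39, limma adjusted p = 0.00035), Pglyrp1 (2.64 ± 0.27, adjusted p = 0.00023) and Il1r2 (2.26 ± 0.24, adjusted p = 0.00028) led these. Other scalings shift the balance of all calls, from 61.8% higher in mcDC to 47.8% with quantile normalization and 46.5% with median-of-ratios scaling, and for cDC2 against mcDC from 43.6% higher in cDC2 to 53.8% and 57.2%.

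**Figure D3:**
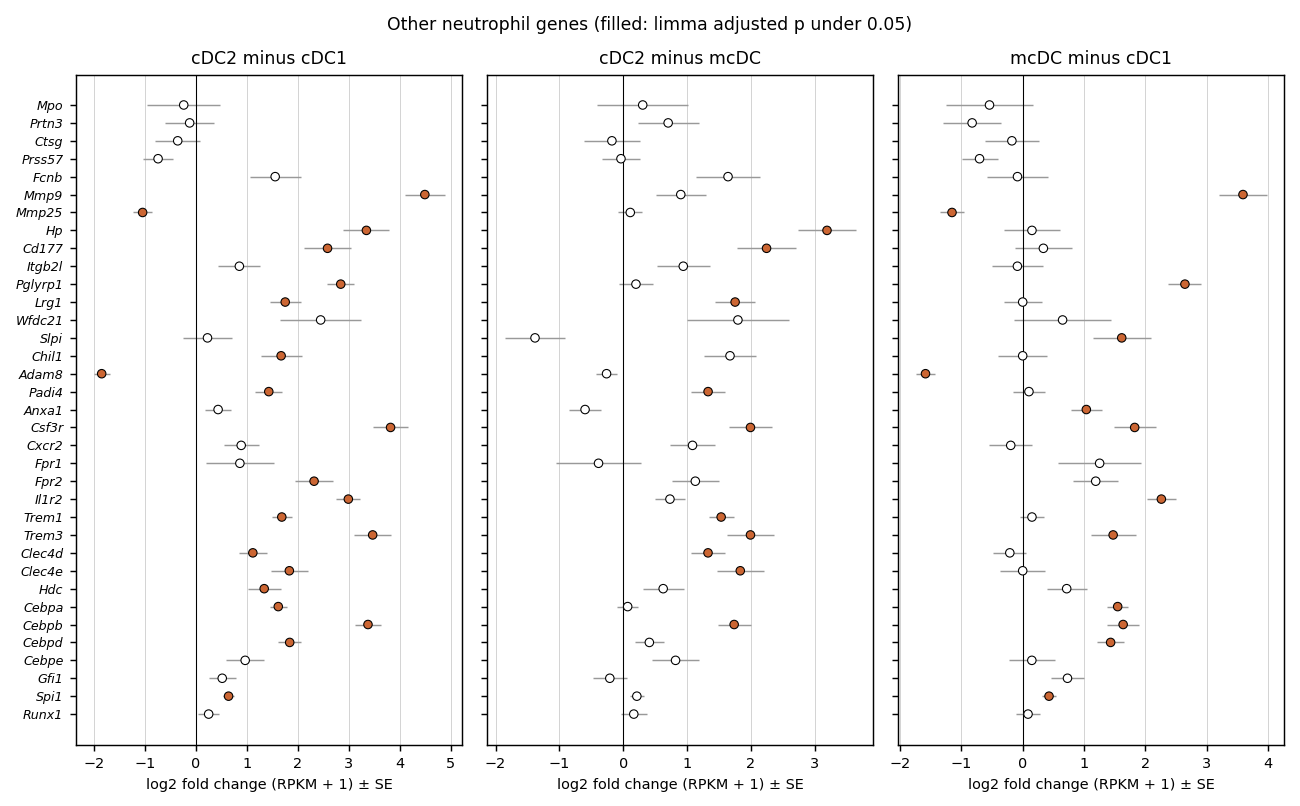
Log2 fold changes on the RPKM + 1 scale of 35 other neutrophil genes in the 3 comparisons, with bars for the standard error and filled points for a limma adjusted p under 0.05. Filled points lie mostly to the right in cDC2 minus cDC1 (19 higher and 2 lower), and the 4 primary granule genes at the top are open in all 3 panels.

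Several relatives of S100a8 and S100a9 were higher in cDC2 than in cDC1, and none spanned the cDC2 libraries as widely. Of 8 genes tested, 7 of them S100 genes and 1 S100pbp, which encodes a binding protein of an S100 protein, 5 were higher in cDC2 than in cDC1, 3 higher in mcDC than in cDC1, and 0 differed between cDC2 and mcDC in limma (0 at an unadjusted p under 0.05 and 0 with voom). Among all genes tested, 10.7% were higher in cDC2 than in cDC1 and 9.53% higher in mcDC than in cDC1. Between cDC2 and mcDC, 1.6% were higher and 2.06% lower in cDC2. S100a4, a regulator of cell motility, was at 817, 1047 and 1199 RPKM in cDC2, at 650, 711 and 684 in mcDC and at 228, 74.2 and 102 in cDC1 (cDC2 minus cDC1 3.06 ± 0.35, limma adjusted p = 0.00023). S100a6 was at 184, 248 and 322 RPKM in cDC2 and at 71.5, 31.2 and 41.0 in cDC1 (2.42 ± 0.29, adjusted p = 0.00036). S100a1 and S100a13 were not called (adjusted p = 0.27 and 0.75 in limma). None of the 8 was 2-fold higher in cDC2 replicate 3 than in replicate 1 on the log2(RPKM + 1) scale, near the 1.35% of all genes tested.

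Receptors for the members' products and inhibitors of their proteases were called higher in cDC2 than in cDC1 at 3 of 11 tested and lower at 0. Of all genes 10.7% were called higher and 8.85% lower. Lrp1, an endocytic receptor that takes up lactoferrin and other ligands, was at 34.4, 41.2 and 44.5 RPKM in cDC2, at 6.85, 2.48 and 3.49 in cDC1 and at 16.6, 11.9 and 9.79 in mcDC (cDC2 minus cDC1 3.04 ± 0.29, limma adjusted p = 9e-05). Tlr4, through which calprotectin is reported to signal, was at 2.41, 2.94 and 2.77 RPKM in cDC2 and at 1.38, 1.41 and 1.25 in cDC1 (0.66 ± 0.18, adjusted p = 0.030), and lost its call when any 1 library of cDC1 or cDC2 was left out (0.066 to 0.13). Fpr2, given above, was the other.

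The genes whose level followed the members most closely included Hp, Cd177 and Fcnb of neutrophils and F13a1 of monocytes. Likeness was taken as Pearson's r over the 9 libraries between a gene and the mean of the members on the log2(RPKM + 1) scale. It is a description, since the libraries share subset and title run. Compared were 9266 other tested genes with at least 5 RPKM in the highest library, without genes named by Gm, LOC or Rik symbols. Of these genes 26 reached 0.9 and 8 reached 0.95. The 10 closest were Hp (0.974), Slfn1 (0.967), Gda (0.965), Tgfbi (0.965), Fcnb (0.963), Cd177 (0.958), F13a1 (0.955), Tnfrsf1a (0.951), Clec10a (0.941) and Mgl2 (0.939). Fcnb, a ficolin of neutrophil precursors, was at 0.205, 3.02 and 5.30 RPKM in cDC2 and at 0.194 or less elsewhere. F13a1, a coagulation factor subunit of monocytes, was at 5.37, 15.1 and 20.6 RPKM in cDC2, and Clec10a, a galactose-binding lectin of macrophages and dendritic cells, at 20.6, 45.4 and 67.6. Among the members themselves, r with the mean of the other 9 was 0.652 for Elane, 0.873 for Retnlg and 0.946 to 0.988 for the rest.

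Markers of other cells moved with the members to different extents. Monocyte genes were higher in cDC2 than in cDC1 at 11 of 16 tested and lower at 1, where 10.7% and 8.85% of all genes were called. Their summed level was 2438, 3152 and 3907 RPKM in cDC2 replicates 1, 2 and 3, against 840 to 1145 in cDC1 and 1348 to 1641 in mcDC. Lyz2, lysozyme, which neutrophils share with monocytes and whose reads may be split with its near-identical copy Lyz1, was at 698, 1176 and 1462 RPKM in cDC2 (cDC2 minus cDC1 3.47 ± 0.25, limma adjusted p = 1.6e-05). Ace, angiotensin-converting enzyme, at 81.6, 96.1 and 104 RPKM, and Adgre4, an adhesion receptor of monocytes and macrophages, at 74.7, 82.1 and 94.6, differed little among the 3 cDC2 libraries. Others did not: Ly6c2, the surface marker of classical monocytes, followed the members' order in cDC2 at 5.84, 22.7 and 39.4 RPKM and was not called against cDC1, at 45.6, 23.8 and 40.04 (-0.95 ± 0.56, limma adjusted p = 0.31), and Nr4a1, a factor of non-classical monocytes, ran the opposite way at 471, 230 and 228. None of the 17 monocyte genes in the table was at 0 in cDC2. Of the 16 tested, 6 were 2-fold higher in cDC2 replicate 3 than in replicate 1, against 1.35% of all genes tested.

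For the 10 mature neutrophil genes the summed level was 54.2, 78.0 and 87.6 RPKM in the cDC2 libraries, against 5.36 to 7.09 in cDC1 and 22.3 to 27.7 in mcDC. Of these genes, 3 of 10 were 2-fold higher in cDC2 replicate 3 than in replicate 1, against 1.35% of all genes tested. The summed primary granule genes were at 0.242, 4.40 and 6.72 RPKM in cDC2, with 4 of 5 at 0 in replicate 1, at 1.80, 4.72 and 9.33 in cDC1 and at 0.992, 2.69 and 2.98 in mcDC. Erythroid genes were also lowest in replicate 1 of every subset. Tspan33 made up most of their sum in cDC2 replicates 1 and 3 and was itself highest in cDC2 replicate 1. Without Tspan33 they summed to 4.53, 24.8 and 21.3 RPKM in cDC2, 6.46, 179 and 185.5 in cDC1 and 11.5, 139.5 and 106.5 in mcDC (with it 39.8, 49.0 and 48.6 in cDC2). In cDC2, 5 of 11 erythroid genes were 2-fold higher in replicate 3 than in replicate 1, against the same 1.35% of genes. The sums for B cell genes were lower in cDC2 replicates 2 and 3 (27.8 and 28.5 RPKM) than in replicate 1 (36.01), and T cell genes were at 48.7, 33.02 and 45.9, or 23.9, 20.2 and 31.6 without Tcf7, and Cd3e, a chain of the T cell receptor complex, was at 0.984, 0.906 and 2.85. NK cell genes were at 57.8, 72.2 and 91.2 RPKM, splenic macrophage genes at 195, 196 and 231, and genes of eosinophils, basophils and mast cells at 34.2, 39.7 and 44.2. Single genes made up much of the macrophage sum (Adgre1 at 95.7, 90.2 and 87.6 RPKM) and most of the last sum (Ear2 at 29.45, 31.5 and 35.8). The part of any of these cells in the levels of the members was not tested.

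The listed genes of dendritic cells did not share the span of the members. Clec10a, found in macrophages and dendritic cells and on neither list, rose in the members' order at 20.6, 45.4 and 67.6 RPKM in cDC2. Mgl2, also on neither list, rose in that order at 3.72, 8.62 and 10.7 RPKM in cDC2. Of 6 genes common to conventional dendritic cells and 9 of cDC2, 0 were 2-fold apart between cDC2 replicates 1 and 3 on the log2(RPKM + 1) scale. Among all genes tested 1.35% were 2-fold higher in replicate 3, so a count of 0 lies near that share. Sirpa, a receptor for CD47 that marks cDC2, was at 277, 278 and 267 RPKM in cDC2, and Cd8a, a marker of splenic cDC1, at 1.22, 1.27 and 1.41 there against 306 to 346 in cDC1. Library totals, in M reads, were 9.68 to 11.01 in cDC1, 9.19 to 12.4 in cDC2 and 5.14 to 8.22 in mcDC, and cDC2 replicate 1 was the shallowest of its subset.

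**Figure D4:**
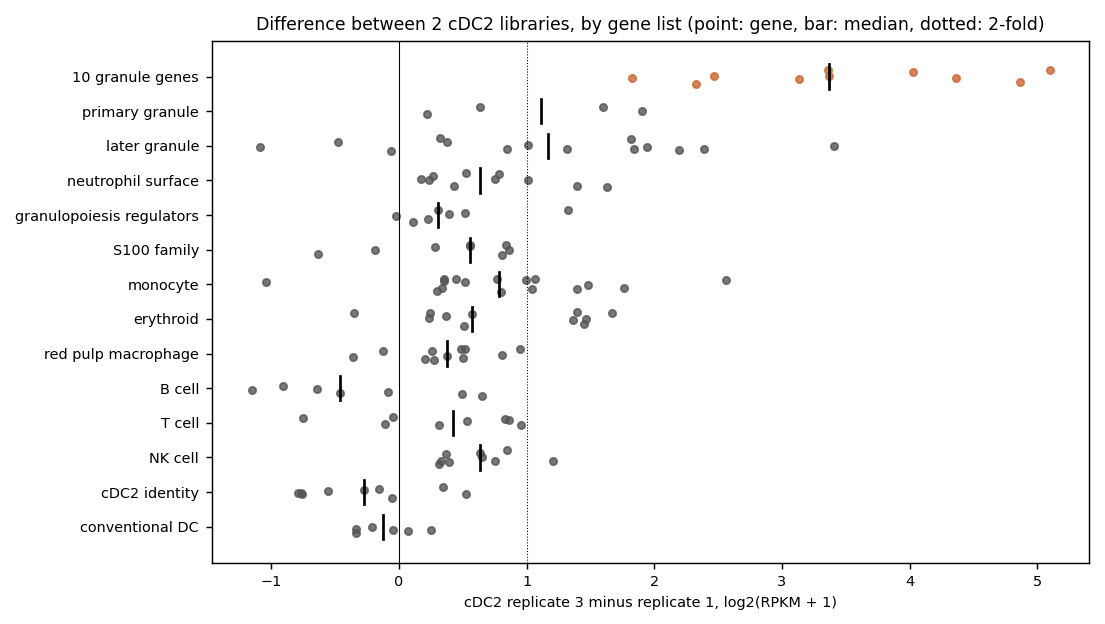
Difference of log2(RPKM + 1) between cDC2 replicate 3 and cDC2 replicate 1 for each gene of 14 lists, with the median as a bar and 2-fold as a dotted line. The 10 granule genes lie between 1.82 and 5.10, while the medians of the other lists lie between -0.47 and 1.16.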

How the data were processed

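RNA of 9 spleen dendritic cell libraries was extracted with a mirVana kit and prepared with a directional kit, per the labels' protocols. The authors deposited a table of expression values, read here as RPKM from the spacing of the low values, and single-library files, of which 8 of 8 were identical to their columns. The build was mm8, per the submitters' processing notes. Of the aligner, counter, annotation and strand setting, none is given in the sources used here. Reads were recovered as the smallest whole numbers that fit all values of a gene, found for 100% of nonzero values (within 0.01 read). Such numbers can understate the true reads of a gene. The value of 1 read in 1 kb was 0.080 to 0.195 RPKM.

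Values were analysed as log2(RPKM + 1), with 1 fit of 3 groups in limma 3.58.1 (R 4.3.3, trend, Benjamini-Hochberg adjustment), for 11971 of 14862 genes above 1 RPKM in at least 2 libraries. On simulated data for cDC2 against cDC1 (11971 genes, 200 changed 4-fold), 98.5% were recovered and 2% of calls were false. The changed genes were drawn from genes with more reads, and all genes had the same spread and no run effect. These rates therefore need not hold for low genes or for genes that vary widely between libraries. The members and the gene lists were chosen with earlier results of these data known. Members got no test, and the tests of the lists carry that limit. Genes named outside the members came from these lists or were the 10 most alike. Alternatives were another pseudocount, filters, scalings, voom on recovered reads, a replicate block and leaving out each library.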

Additional observations from a re-analysis of the deposited data

How the results depend on the processing

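The median differences of the members kept their sign with another pseudocount, with both other scalings and with any 1 library left out, the settings run for them. Leaving out 1 library gave 3.22 to 5.42 for cDC2 minus cDC1, 3.69 to 5.49 for cDC2 minus mcDC and -0.66 to -0.04 for mcDC minus cDC1, which was -1.19 with a pseudocount of 0.1. The median of highest over lowest cDC2 library ran from 0.69, without cDC2 replicate 1, to 3.37 with 1 library left out, and was 3.84 with a pseudocount of 0.1. The limma calls over all genes ran from 1552 to 3465 for cDC2 against cDC1, 158 to 888 for cDC2 against mcDC and 957 to 2620 for mcDC against cDC1 when 1 library was left out. The higher neutrophil genes that are no members numbered 16 to 23, 3 to 14 and 7 to 13 in the same way. With a filter of 5 RPKM they were 11 for cDC2 against cDC1 and 5 for cDC2 against mcDC, and voom on recovered reads, added after seeing the data, also gave 5 for the latter. Mpo was 0.30 higher in cDC2 than in cDC1 without cDC1 replicate 3 or without cDC2 replicate 1, and 0.14 higher with voom (-0.88 to 0.30 with 1 library left out). It was at -0.07 against mcDC without mcDC replicate 1 (-0.07 to 0.92). For mcDC against cDC1, Cxcr2 was at 0.18 without mcDC replicate 3 (-0.57 to 0.18) and Cebpe at -0.04 without mcDC replicate 1 (-0.04 to 0.29). For cDC2 against cDC1, Prtn3 was at 0.11 without cDC1 replicate 3 and 0.34 without cDC2 replicate 1 (-0.61 to 0.34), and Slpi at -0.03 without cDC1 replicate 1 and -0.04 without cDC1 replicate 2 (-0.04 to 0.76). None of these reversed values was called, and the cause was not tested. Of 1507 alternative values of single genes, 1373 kept direction and side of the threshold.

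The replicate number is a run of library titles, and the labels do not say that it pairs samples. Each library's deviations from its subset mean were correlated with those of the libraries of the other subsets, over 6692 genes. Here 8 of 9 same-run pairs correlated above 0.1 (0.096 to 0.66, other pairs -0.68 to 0.06), and 9 of 9 libraries correlated best with their own run. The deviations cancel out within a subset, so the values of same-run and other pairs are not independent. The pattern is a hint from the data and not the design. With the replicate block 773 genes were called for cDC2 against mcDC (438 without it). With the block and without mcDC replicate 3, added after seeing the data, the calls were 4275, 722 and 3005 for cDC2 against cDC1, cDC2 against mcDC and mcDC against cDC1, and Cxcr2 was at 0.15 for mcDC against cDC1. Depth limits the low values: 1 to 3 reads stand behind several member values outside cDC2.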
